A study of Mus musculus with 6 samples.

Results

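Igfl3 is 1 of the 16158 genes in the deposited tables, and it was followed here in every cell of the skin of 6 mice. It was selected on its measured level in keratinocytes, which earlier results of these data showed to be far higher after antigen was switched on, so its own levels are given as a description and carry no test. A cell was called positive when it held at least 1 unique molecular identifier (UMI, the tag that counts 1 captured mRNA molecule) of Igfl3. Of 20464 cells kept, 626 were positive. Per mouse, 4 cells were positive in NO_AG 1, 2 in NO_AG 2, 109 in AG 1, 407 in AG 2, 23 in AG_CPI 1 and 81 in AG_CPI 2.

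All 6 mice were NINJA animals, whose genome carries a neoantigen that is inducible, and were between 6 and 12 weeks old. The sequenced skin had been treated with 4-OH-Tam in every group, the NO_AG controls included, and P14 CD8 T cells (T cells with a transgenic receptor) were recovered from the mice. In NO_AG the antigen was off, in AG it was on, and in AG_CPI it was on and the mice also had CPI, which the labels do not spell out. Each group had 2 mice, and the labels give no sex, batch, date or litter. Libraries were made with a droplet kit that reads the 5′ end of transcripts. With 2 mice a group, the spread between mice is known only roughly.

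Igfl3 belongs to the IGF-like family, small secreted proteins that were named for a distant likeness to insulin-like growth factors. Its receptor is IGFLR1, a membrane protein related to the tumour necrosis factor receptor family and found mainly on T cells. Family members have been described as induced in keratinocytes of inflamed skin. Keratinocytes are the epithelial cells of the epidermis and hair follicle: basal cells carry Krt5 and Krt14, suprabasal cells Krt1 and Krt10, wounded or inflamed epidermis the stress keratins Krt6a, Krt6b and Krt16, and the upper follicle Krt79, Cst6 and the beta-defensin Defb6.

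The deposited cells of a library summed to between 5903724 and 24656382 UMIs, with medians of 2527 to 4744 UMIs per cell. A pair of libraries stood apart. In AG 2, the median keratinocyte-like cell held 2373 UMIs, against 6830 in AG 1, and 1055 of its 1985 keratinocyte-like cells (53.1%) lay in a cluster numbered 4 that held 75 cells of all other mice together. In AG_CPI 1, the Y-linked gene Ddx3y was found in 33 of 186 keratinocyte-like cells (17.7%), and in none of the keratinocyte-like cells of the other 5 mice; its sex therefore differs from that of AG_CPI 2, and the part of sex in any result was not tested. The AG_CPI mice gave 186 and 250 keratinocyte-like cells, against 1103 to 2510 in the other mice. Pairs of libraries shared between 5 and 35 cell barcodes.

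Igfl3 lies on the plus strand of chromosome 7, at chr7:18176494-18181862 in GRCm38.p6, and has 1 annotated transcript of 4 exons with a coding length of 420 bases, or 140 codons. The 250 bases before its start (chr7:18176244-18176493, plus strand, from RefSeq, GRCm38.p6) are shown because the gene went from nearly silent to readily detected, and the capitals mark a TATA box (TATAAA) and a GATA motif (AGATAA).
Igfl3 promoter: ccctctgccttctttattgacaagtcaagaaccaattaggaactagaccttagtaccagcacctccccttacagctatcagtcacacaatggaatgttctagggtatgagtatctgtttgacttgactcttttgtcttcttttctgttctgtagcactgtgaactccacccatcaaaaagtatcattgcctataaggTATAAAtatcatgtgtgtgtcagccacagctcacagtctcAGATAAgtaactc
The TATA box ends 48 bases before the start and the GATA motif ends 8 bases before it. Both strands of 32851 promoters of the same length were searched, and TATAAA was present in 12.4% of them and AGATAA in 9.99%. A CANNTG E-box was also found once, overlapping neither of the marked motifs, and 66.2% of all promoters hold one. None of the 4 motifs tied to inflammatory signalling matched: the GAS motif TTCNNNGAA (in 7.02% of promoters), the interferon response core GAAANNGAAA (2.98%), the AP-1 site TGANTCA (6.75%) and the NF-kappa-B site (7.25%). These matches and misses describe letters in this window only.

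Igfl3 was nearly absent from keratinocyte-like cells without antigen and present in 9.16% to 18.4% of them with it. Of the keratinocyte-like cells, 4 of 2510 (0.159%) were positive in NO_AG 1 and 2 of 1985 (0.101%) in NO_AG 2. In AG 1, 101 of 1103 cells (9.16%, 95% Wilson interval 7.59 to 11.0) were positive, and in AG 2, 365 of 1985 (18.4%, 16.7 to 20.2). The AG_CPI mice had 21 of 186 (11.3%, 7.50 to 16.6) and 27 of 250 (10.8%, 7.53 to 15.3). Every mouse with antigen lay above both mice without it, and the AG and AG_CPI mice overlapped. These intervals cover counting error only.

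Cell depth differed between mice, so the share was also computed for a depth of 1500 UMIs in every cell, the depth that every keratinocyte-like cell reached. It was then 0.0454% and 0.0534% in the NO_AG mice, 5.57% and 11.6% in the AG mice, and 7.22% and 7.67% in the AG_CPI mice. The order of the groups stayed, and AG 2 stayed the highest mouse.

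The mean level, in Igfl3 UMIs per 10000 UMIs of the cell, was more alike than the share between the AG mice, and less alike between the AG_CPI mice. It was 0.00366 in NO_AG 1 and 0.00356 in NO_AG 2, from 6 and 2 UMIs. It was 1.16 and 1.12 in the AG mice, from 1098 and 914 UMIs, and 1.04 and 1.63 in the AG_CPI mice, from 101 and 289 UMIs. As mean ± SD (n = 2), the groups had 0.00361 ± 7.25e-05, 1.14 ± 0.0259 and 1.33 ± 0.417. The AG mean was 315 times the NO_AG mean, with an interval of 160 to 729 from the Poisson error of the 8 NO_AG UMIs, and the AG_CPI mean was 369 times it (187 to 854). The ratio depends on the cells that enter: with equal weights for the 5 clusters found in all 6 mice, which leaves out cluster 4 and all other clusters, it was 166 for AG and 222 for AG_CPI, and with the stricter cell filter 495 and 688. AG and AG_CPI differed by less than the spread between the AG_CPI mice. The AG share of 13.8% ± 6.53 (SD, n = 2) rests on AG 2, without which it is 9.16%.

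**Figure D1:**
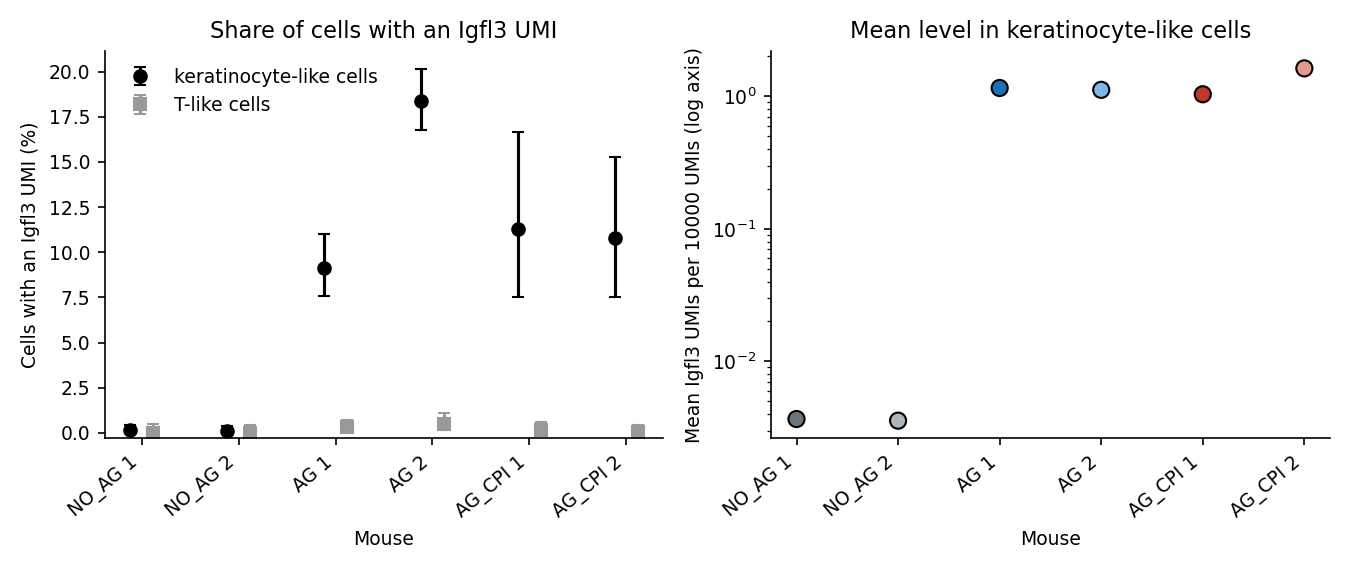
Left, percent of keratinocyte-like (black) and T-like (grey) cells with an Igfl3 UMI in each mouse, with 95% Wilson intervals; right, mean Igfl3 UMIs per 10000 UMIs of keratinocyte-like cells on a log axis, 1 point per mouse. The 4 mice with antigen lie between 9.16% and 18.4% and between 1.04 and 1.63 per 10000, and the NO_AG mice at or below 0.159% and 0.00366.

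T-like cells, which should not make Igfl3, were taken as a measure of background, whose source was not tested. No Igfl3 UMI was found in the 783 T-like cells of NO_AG 1 or the 849 of NO_AG 2, limiting the share to 0.383% and 0.353%. The NO_AG keratinocyte shares lie below those limits, so at this depth T-like cells cannot show whether the 8 NO_AG UMIs are background. All 8 lay in keratinocyte-like clusters 6 and 9 and none in another class. In cluster 6 of NO_AG 1 the share was 0.949% (Wilson 95% interval 0.323% to 2.75%), above the limit of 0.383%, which its interval includes. With antigen, 5 of 1655 (0.302%) and 6 of 1195 (0.502%) T-like cells were positive in the AG mice, and 2 of 1185 (0.169%) and 1 of 1356 (0.0737%) in the AG_CPI mice. T-like cells were shallower in most mice, with medians of 2274 to 2642.5 UMIs. In AG 2 the depths were close, at 2628 UMIs in T-like and 2373 in keratinocyte-like cells, and the shares were 0.502% and 18.4%. No gamma-delta T-like cell of any mouse was positive, and among monocyte/macrophage-like cells the positives were 5 of 537 in AG 2 (0.931%).

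Outside keratinocyte-like cells, Igfl3 was above the T-like share in sebocyte-like cells of some antigen mice. Sebocytes, the lipid-filled cells of the sebaceous gland, are marked by Scd1, Mgst1 and Cidea. None of 327 and 164 sebocyte-like cells were positive in the NO_AG mice. In AG 2, 13 of 150 (8.67%) were positive, and in AG_CPI 2, 40 of 138, at a mean of 1.81 per 10000. AG 1 had 1 positive of 17 sebocyte-like cells, and AG_CPI 1 had a single such cell. The 40 positive cells of AG_CPI 2 lay in 1 cluster, led by Scd1 and Mgst1, in which the NO_AG mice had none among 229 and 133 cells. They held 47 Igfl3 UMIs in all. Markers of other cells differed in that cluster too: per 10000, the macrophage gene C1qa was at 1.70 in AG_CPI 2 against 0 and 0.0430 in the NO_AG mice, the T cell gene Trac at 0.438 against 0.110 and 0.124, and Krt79, a keratin of the upper follicle, at 46.1 against 11.2 and 24.5. AG 2 had C1qa at 1.55 in that cluster with 1 Igfl3-positive cell of 29. Their part in the result was not tested. A further 2 small groups had most of their positive cells in 1 mouse each: 15 of 48 endothelial-like cells of AG 2, and 13 of 24 melanocyte/Schwann-like cells of AG_CPI 2, against 1 of 69 of the latter in AG 2. Of those 15 endothelial-like cells, 14 also held a UMI of Krt5 or Krt14, and 12 lay among the 40 cells with Pecam1, the endothelial adhesion molecule. Of the 13 melanocyte/Schwann-like positives, 12 lay in cluster 49, a group of 21 cells with Krt14 at 98.3, Krt79 at 47.8, Krt5 at 24.0 and Scd1 at 12.2 per 10000 beside the melanocyte gene Dct at 11.9. Whether either group is keratinocytes joined to other cells was not tested.

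Within the keratinocyte-like class, the cells named as hair follicle held most Igfl3 UMIs in 3 of the 4 antigen mice and 47.3% in AG 2, and basal- and suprabasal-named cells held few. The follicle-named cells had mean levels of 0.0116 and 0.00832 per 10000 in the NO_AG mice, 2.07 and 2.83 in the AG mice, and 2.88 and 5.12 in the AG_CPI mice. They held 79.6% of the keratinocyte Igfl3 UMIs in AG 1, 47.3% in AG 2, 86.1% in AG_CPI 1 and 79.9% in AG_CPI 2. Keratinocyte-like cells with no state name held 18.7%, 51.2%, 12.9% and 20.1% in the same order. In the basal-named cells the levels were 0 in both NO_AG mice (697 and 443 cells), 0.0477 and 0.267 in the AG mice, and 0.0302 and 0 in the AG_CPI mice. In the suprabasal-named cells, 4 of 153 cells were positive in AG 1 and 1 of 16 in AG 2, and none elsewhere. No stress-named cell was positive, but only 36 cells of AG 2 and 4 of AG_CPI 1 bore that name, and 0 of 36 allows a share of up to 8.33%. This depends on the naming, since cluster 4, described further on, has Igfl3 and is named as stress keratinocyte in 4 other groupings.

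The cells were grouped without using Igfl3, and 1 of the follicle clusters, cluster 6, had the highest level in each antigen mouse among the 5 clusters found in all 6 mice. It is led by Defb6, Cst6, Krt79 and Klk7, a kallikrein protease of the outer epidermis and upper follicle, and 4 fixed follicle markers are among its top genes. In the NO_AG mice, 3 of 316 and 1 of 200 of its cells were positive. With antigen, 63 of 290 (21.7%) were positive in AG 1, 58 of 154 (37.7%) in AG 2, 15 of 43 (34.9%) in AG_CPI 1 and 16 of 39 (41.0%) in AG_CPI 2. Mean levels were 0.0268 and 0.0270 per 10000 in the NO_AG mice, 3.33 and 4.37 in the AG mice, and 3.75 and 7.35 in the AG_CPI mice. Every antigen mouse lay above both NO_AG mice, while AG and AG_CPI overlapped. The cluster held between 43.6% and 84.5% of all Igfl3 UMIs of each antigen mouse.

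Upper follicle genes of cluster 6 were present with and without antigen, though not all at like levels. Defb6 stood at 182 and 155 per 10000 in the NO_AG mice, 136 and 158 in the AG mice, and 84.6 and 133 in the AG_CPI mice. Krt79, the keratin of the upper follicle and sebaceous duct, was at 83.9 and 92.3, 135 and 104, and 113 and 133. Cst6, a protease inhibitor and also a leading gene of the cluster, stood at 138 and 185 without antigen and 92.0 and 206 in the AG mice, but at 22.0 and 55.7 in the AG_CPI mice, below all the others. The cluster thus existed in the NO_AG skin, where it made up 12.6% and 10.1% of keratinocyte-like cells, against 26.3%, 7.76%, 23.1% and 15.6% in AG 1, AG 2, AG_CPI 1 and AG_CPI 2. The AG shares overlapped those of NO_AG, while both AG_CPI shares lay above both NO_AG shares. The Igfl3 levels within the cluster did not overlap between NO_AG and the mice with antigen.

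The other follicle-named cluster of all 6 mice, led by Sfrp1 and by Sox9, the follicle stem cell transcription factor, had few positive cells. It had none of 416 and 399 in the NO_AG mice, 2 of 178 and 2 of 89 in the AG mice, and none of 13 and 17 in the AG_CPI mice. Cluster 9, which is led by Fst, Sostdc1 and Aldh3a1 and bears no state name, came after cluster 6 among clusters found in every mouse. Its positives were 1 of 406 and 1 of 174 cells without antigen, 26 of 195 (13.3%) and 13 of 76 (17.1%) in the AG mice, and 4 of 32 (12.5%) and 7 of 35 in the AG_CPI mice. Its mean level was 1.22 ± 0.207 in AG and 1.67 ± 1.11 in AG_CPI (SD, n = 2), against 3.85 ± 0.738 and 5.55 ± 2.55 in cluster 6. A basal cluster led by Krt15 and Col17a1 had no positive cell among 557, 363 and 55 cells of NO_AG 1, NO_AG 2 and AG 1. The basal-named cluster found in all 6 mice, cluster 17, had none of 140 and 80 without antigen, 5 of 171 (2.92%) and 8 of 62 (12.9%) in the AG mice, and 1 of 26 and 0 of 18 in the AG_CPI mice.

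Some clusters with Igfl3 were spread unevenly over the mice. Clusters 4, 29 and 45 were found mostly or only in 1 mouse, and these may be that library rather than a state. Cluster 4 held 190 positive of 1055 cells in AG 2 (18.0%, mean 1.00 per 10000), and 1 of 10 in AG 1 (9 UMIs, mean 1.60), but 1 of 41 and 0 of 21 in the AG_CPI mice. It is led by Cxcl10, Ccl5, Krt6a and Stfa1. It has no name in the main grouping, but each of 4 other groupings placed most of its cells in a cluster named as stress keratinocyte, so its AG 2 cells bear on the stress state. In those AG 2 cells the summed level of 5 T cell markers was 4.42 per 10000 and that of 5 myeloid markers 5.63, against 0.977 and 0.692 in cluster 6 of the same mouse; their part in the result was not tested. Cluster 30, led by the cornified envelope gene Sprr1a with Cst6 and Klk6, was found only in AG 2 and AG_CPI 2. There, 35 of 51 cells were positive in AG 2 (68.6%, mean 3.32) and 3 of 41 in AG_CPI 2. Clusters 29 and 45, which hold hair shaft and sheath keratins, came from AG 2 alone, with 27 of 101 and 15 of 40 positive cells. Without cluster 4, the AG mean level was 1.20 per 10000.

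**Figure D2:**
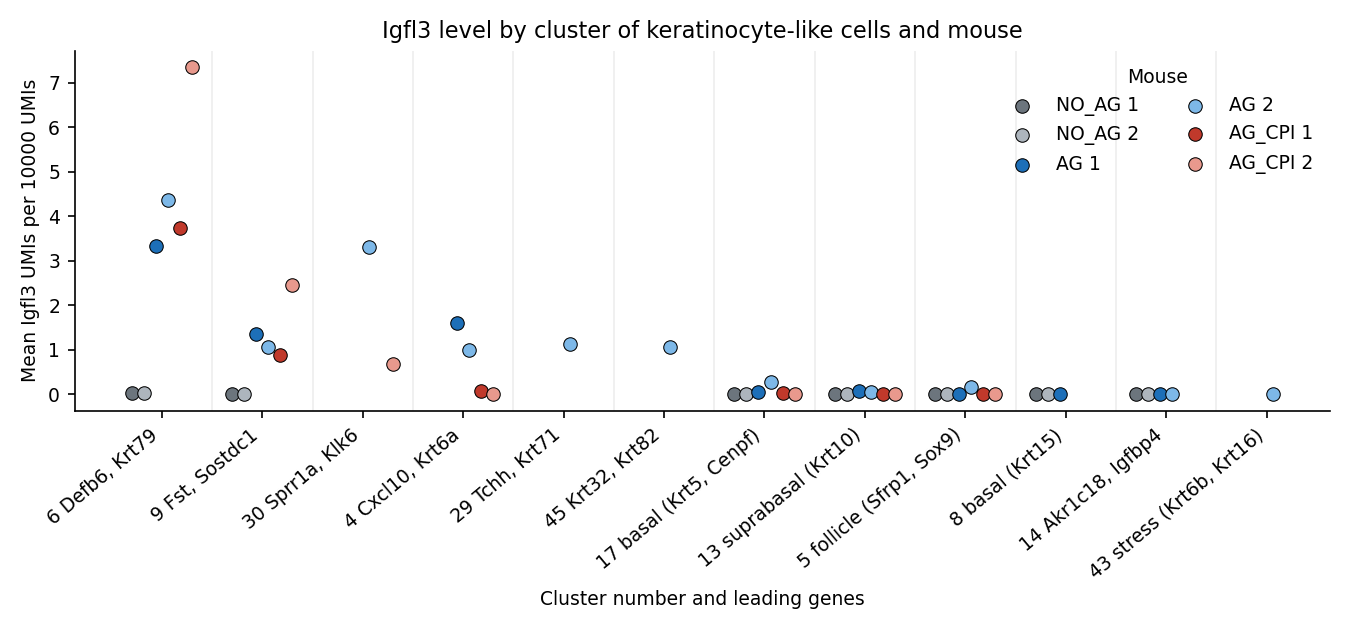
Mean Igfl3 UMIs per 10000 UMIs in 12 clusters of keratinocyte-like cells, 1 point per mouse with at least 10 cells in the cluster. In cluster 6 the antigen mice lie between 3.33 and 7.35 and the NO_AG mice at 0.0268 and 0.0270. Basal cluster 8, suprabasal cluster 13 and stress-named cluster 43 lie at or below 0.0830, and basal cluster 17 reaches 0.280 in AG 2. Cluster 4 is named as stress keratinocyte in 4 other groupings. It lies at 1.60 in AG 1 (1 positive of 10 cells), 1.00 in AG 2, 0.0660 in AG_CPI 1 and 0 in AG_CPI 2.

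The amount per positive cell was uneven. Among positive keratinocyte-like cells, the median was 4 UMIs in AG 1, 1 in AG 2, 2 in AG_CPI 1 and 5 in AG_CPI 2, and the highest cells held 148, 40, 24 and 71 UMIs. The 10% of positive cells with most Igfl3 held 50.7%, 47.9%, 51.5% and 57.1% of the Igfl3 UMIs. Cells with at least 10 UMIs made up 28.7% of the positive cells in AG 1 and 5.21% in AG 2. In cluster 6 the medians were 5, 3, 2 and 6.5 UMIs in the same order of mice. In cluster 4 of AG 2, 71.6% of positive cells held a single UMI and the highest held 5. AG 2 therefore had the highest share of positive keratinocyte-like cells, but with fewer UMIs in most of them and a mean level close to that of AG 1. Positive cells were deeper than negative ones in each antigen mouse, with medians of 8636 against 6645 UMIs in AG 1, 3305 against 2236 in AG 2, 5902 against 3464 in AG_CPI 1 and 6271 against 2284 in AG_CPI 2.

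**Figure D3:**
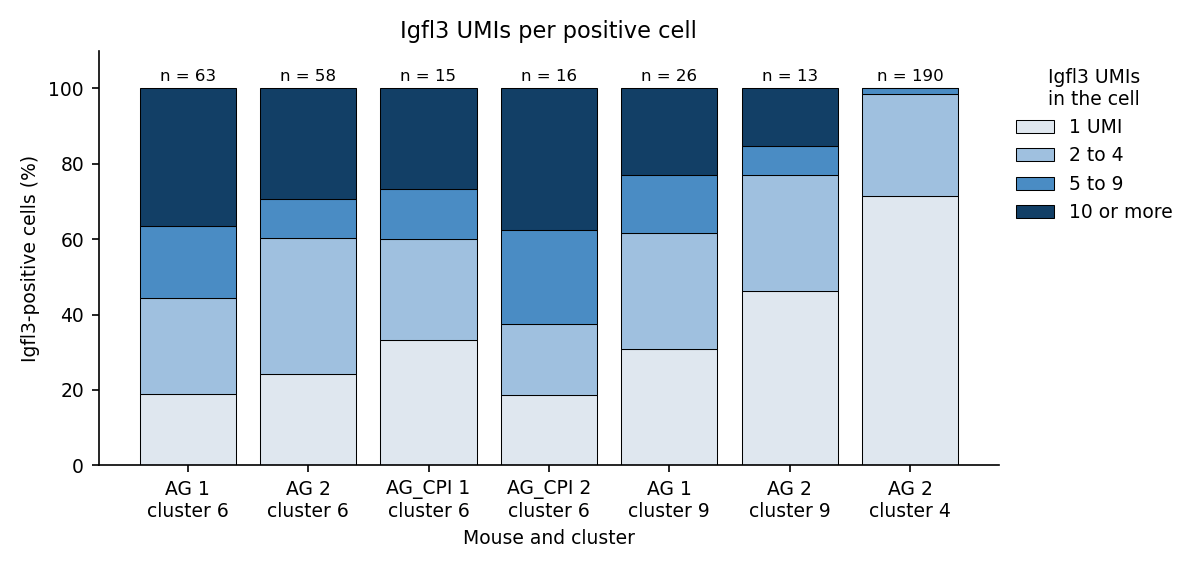
Percent of Igfl3-positive cells that hold 1, 2 to 4, 5 to 9, or 10 or more Igfl3 UMIs, for the mouse and cluster pairs with at least 10 positive cells in clusters 4, 6 and 9; the number of positive cells stands above each bar. Cells with 10 or more UMIs are found in every bar of clusters 6 and 9 and in none of cluster 4, where 71.6% hold 1 UMI.

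Which genes go with Igfl3 in single cells was asked by comparing positive and negative keratinocyte-like cells of the same mouse in the 4 antigen mice. When negative cells were weighted to the same depth only, genes of the upper follicle were among those higher in positive cells. This holds for the fit over the 4 mice, and in AG 2 190 of the 365 positive cells lay in cluster 4 and 58 in cluster 6. Of 8033 genes, 49 (0.61%) were higher and 40 (0.498%) lower in positive cells (limma, Benjamini-Hochberg adjusted p under 0.05), or 1.11% in all. The genes named next were chosen after their values were seen, as those with the smallest p among the genes that passed. Whether each moved the same way in all 4 mice was not checked in this fit. The upper follicle genes Defb6, Cst6 and Krt79 rose by log2 differences of 2.22 (SE 0.130), 1.97 (SE 0.132) and 1.80 (SE 0.147). Gata6, a transcription factor of the sebaceous duct and upper follicle, rose by 1.84 (SE 0.248). Klk7, Sprr4, Sprr1a and Cstb, genes of cornifying cells, rose by 1.27, 1.92, 1.05 and 0.98. Of the 7 tested genes of the stress and cornified list, 2 rose, Sprr1a and Krt17 (0.85), and 2 fell, Stfa1 (-2.26, limma adjusted p = 0.00657) and Krt6a (-1.27), with a median of -1.32 against -0.09 over all genes. Among the genes that fell were Krt15 (-0.72) and Krt5 (-1.26) of basal cells, Krt1 (-1.61) of suprabasal cells, the metallothionein Mt4 (-4.24), Sfrp1 (-1.28) and the gap junction gene Gja1 (-2.47). Defb6, Cst6, Krt79 and Klk7 are also the leading genes of cluster 6, where Igfl3 is highest.

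When the negative cells were also weighted to the same mix of clusters, no gene passed the test: 0 of 7761 (0%) in limma, with 380 at an unadjusted p under 0.05, and 1 gene in limma-voom on the recovered UMIs. Without AG 2, 3 genes passed. Of the 89 genes above, 88 were tested again, and 84 kept their sign, while their median absolute log2 difference went from 1.27 to 0.48. The smallest adjusted p was that of Defb6. Its levels in positive against negative cells were 125 against 79.3 per 10000 in AG 1, 50.6 against 28.8 in AG 2, 71.9 against 38.3 in AG_CPI 1 and 125 against 75.0 in AG_CPI 2. It was higher in 4 of 4 mice, by a log2 difference of 0.72 (SE 0.0872, limma adjusted p = 0.0511, and adjusted p = 0.0054 in limma-voom). Gata6 had a difference of 0.96 (SE 0.226) and was higher in 4 of 4 mice, and Krt1 one of -1.14 (SE 0.220) and was lower in 4 of 4. Krt79 (0.33), Cst6 (0.34), Klk7 (-0.04), Sprr1a (-0.02) and Krt17 (-0.13) differed little once clusters were matched.

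Cluster 6 was also compared alone, a choice made after seeing the data. Here 3 of 5558 genes (0.054%) passed. Krt1 was lower in positive cells, at 4.36 against 8.40 per 10000 in AG 1, 1.27 against 4.53 in AG 2, 8.80 against 26.4 in AG_CPI 1 and 7.43 against 32.8 in AG_CPI 2 (log2 difference -1.62, SE 0.181, limma adjusted p = 0.00652). Stfa3, a stefin that inhibits cysteine proteases, was lower by a log2 difference of -1.34 (SE 0.187, limma adjusted p = 0.0325). Defb6 was higher, at 183 against 125, 232 against 127, 100 against 53.5 and 200 against 115 in the same order of mice (log2 difference 0.76, SE 0.114, limma adjusted p = 0.0427). All 3 genes moved the same way in 4 of 4 mice. The suprabasal keratin Krt1 was thus scarcer, and the defensin more abundant, in the Igfl3-positive cells of the cluster. Between 15 and 63 positive cells per mouse entered.

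Interferon-stimulated genes did not pass in either form of this comparison, in which 0% (clusters matched) and 1.11% (depth only) of all genes passed. With clusters matched, 0 of 23 interferon-gamma response genes, 0 of 13 type I interferon-stimulated genes, 0 of 14 TNF and NF-kappa-B targets and 0 of 7 stress keratin and cornified stress genes passed. As 0 of all 7761 genes passed there, counts of 0 are no result about these lists. Their median log2 differences were -0.04, 0.17, -0.04 and -0.63, against -0.06 over all genes tested. Isg15, an interferon-induced ubiquitin-like protein, differed by 0.05 (SE 0.216). Cxcl10 differed by 1.07 with an SE of 0.574. The stress keratin Krt6a was lower in the positive cells of 4 of 4 mice, by -0.83 (SE 0.164), and did not pass.

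**Figure D4:**
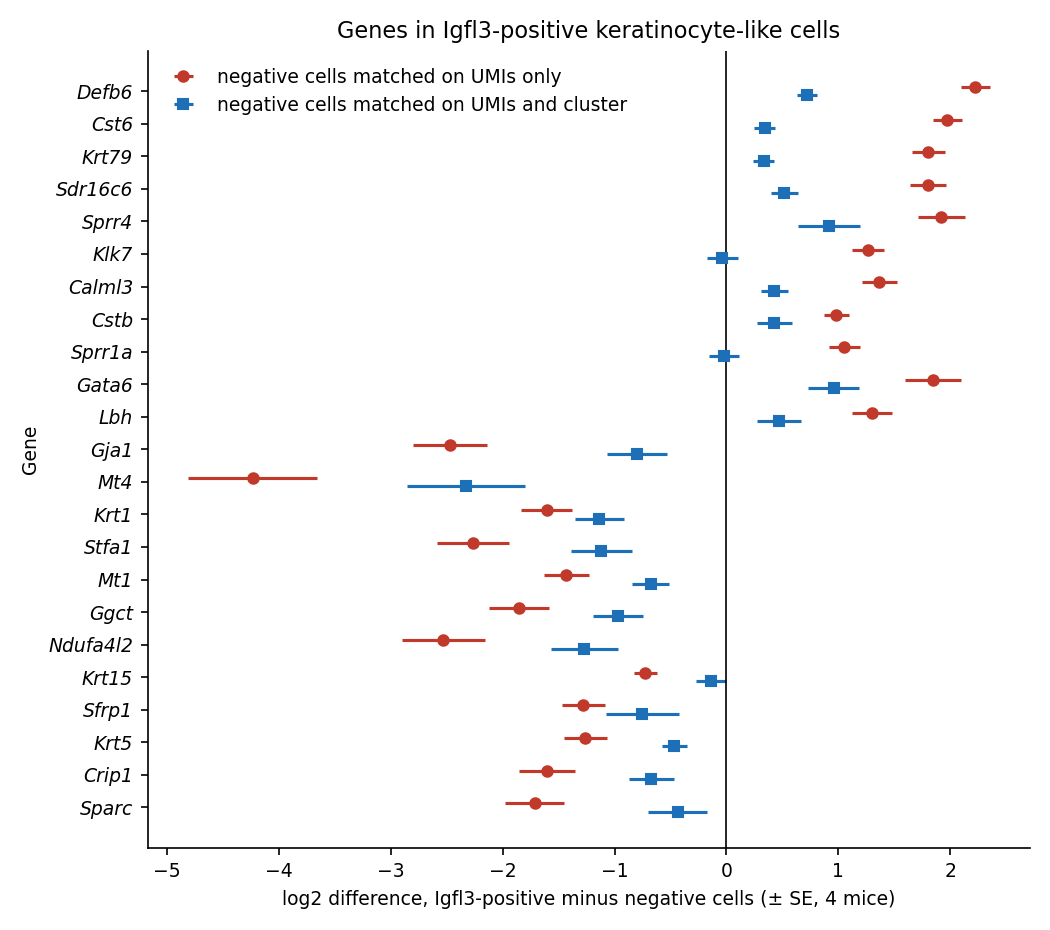
Log2 difference ± SE between Igfl3-positive and Igfl3-negative keratinocyte-like cells over the 4 antigen mice, for higher and lower genes named by the rule, with negative cells matched on UMIs only (circles) or on UMIs and cluster (squares). Defb6 goes from 2.22 to 0.72 and Krt79 from 1.80 to 0.33 when clusters are matched, and most squares lie closer to 0 than their circles.

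The pattern of Igfl3 over mice and clusters was compared with that of every other gene, as a description with no test. Profiles of at least 20 cells of 1 mouse and 1 cluster were used, and they share libraries. Over all 6 mice (53 profiles, 7864 genes) genes most alike by Pearson correlation included Kif26b (0.77), Cdc42ep4 and Anpep (0.72 each), Oasl2 (0.70), Gpx2, Nebl and Apol9a (0.68 each), Sgk1 (0.66) and Stard5 (0.65). Of these, Oasl2 is on the list of type I interferon-stimulated genes used here, and whether others respond to interferon was not examined. Over the antigen mice alone (31 profiles, 7728 genes) they included Gata6 (0.85), Egr2 (0.82), Defb6 and Epcam (0.80 each), Tcaf2 and Nebl (0.79 each), Cdc42ep4 (0.78), Cyp27a1 (0.77) and Krt79 (0.74). Without AG 2, the value for Gata6 was 0.95, and those for Egr2, Defb6, Epcam and Cyp27a1 also rose. Nebl stayed at 0.79, while Tcaf2 and Cdc42ep4 fell to 0.74 each and Krt79 to 0.71. Over all mice, every gene named fell when AG 2 was left out, Kif26b to 0.71 and Gpx2 to 0.57. Isg15 ranked 16 over all mice (0.62) and 815 over the antigen mice (0.35). Nebl and Cdc42ep4 were on both lists.

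The groups were then compared over the whole keratinocyte-like class, to show which of the listed pathways moved beside Igfl3. Several type I interferon-stimulated genes were higher with antigen. Between AG and NO_AG, 40 of 8208 genes passed (0.487%, limma adjusted p under 0.05), 38 of them higher (0.463%). Of the 10 type I genes tested, 9 rose, with a median of 2.60 on the log2 scale against -0.01 over all genes. Of those 10, however, 7 met the filter on low values only with the help of antigen mice, where they are high, so this count and median lend no support. Isg15, Bst2 and Xaf1, the 3 that met it in both NO_AG mice, all rose, and so did the 5 interferon-gamma genes called below, which met it there too. Isg15 stood at 0.278 and 0.424 per 10000 without antigen, at 4.41 and 6.56 in the AG mice and at 1.56 and 2.14 in the AG_CPI mice. It rose by 3.68 between AG and NO_AG (SE 0.243, limma adjusted p = 0.00127). Bst2, an interferon-induced antiviral gene, rose by 2.87 and Xaf1 by 2.26. Rtp4, Oasl2 and Ifit1, which were tested only with the help of antigen mice, had differences of 2.83, 3.05 and 2.86, given as a description. Of 20 interferon-gamma response genes, 5 rose, among them the chemokine Cxcl9 (2.86), the GTPase Gbp2 (2.40), and the immunoproteasome subunits Psmb8 (1.24) and Psmb9 (1.32). Without AG 2, 19 genes passed in all, with 7 of the type I and 1 of the interferon-gamma genes. Without AG 1, the total was 117, and without NO_AG 1, NO_AG 2, AG_CPI 1 or AG_CPI 2 it was 15, 11, 24 and 27. The interferon-gamma count was 8 without AG 1 and 1 to 3 without any 1 of the others, while the type I count stayed between 6 and 8. Markers of other cells were also higher in some antigen mice. The summed level of 5 T cell markers in the class was 0.440 and 0.905 per 10000 without antigen, against 0.984 and 3.48 for the AG mice and 1.30 and 3.65 for the AG_CPI mice. The sum of 5 myeloid markers was 0.0972 and 0.167 without antigen, 0.0976 and 4.44 for the AG mice, and 2.63 and 0.703 for the AG_CPI mice, so AG 1 lay within the NO_AG range. The part of these markers in the result was not tested.

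No listed gene of the TNF, IL-17, insulin-like growth factor, epidermal growth factor or TNF receptor lists passed between AG and NO_AG. This covers 13, 6, 9, 3 and 8 tested genes. Over all genes, 40 of 8208 (0.487%) passed, so counts of 0 in lists this short are near that share. They are no result about these lists. The insulin-like growth factor axis had a median log2 difference of -0.20, and of its members the binding protein Igfbp3 stood at 0.925 and 1.12 per 10000 without antigen, at 0.387 and 0.0388 in the AG mice and at 0.349 and 0.0364 in the AG_CPI mice. The stress keratin list also had 0 of 7 passing, with a median of 2.16; without AG 2, Krt16 passed (log2 difference 2.22, limma adjusted p = 0.0242), and without AG 1, 3 of the list passed. Krt16 stood at 1.19 in AG 1 and 7.45 in AG 2, against 0.212 and 0.176 without antigen, so the AG mice differed widely. Of the 7 stress genes, 2 met the filter only with the help of antigen mice, so the median of 2.16 is a description.

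AG_CPI was compared with the same NO_AG mice, so both comparisons share their controls. Here 84 of 8208 genes passed (1.02%), of which 44 (0.536%) were higher. Of the type I list 7 of 10 rose (median 1.60), 3 of them among those that met the filter in both NO_AG mice, of the interferon-gamma list 2 of 20, among them Cxcl9 (2.49), and of the stress list Krt16 (4.40) and Stfa1 (3.59). Sprr1b (4.32) also passed, but met the filter in no NO_AG mouse, so its value is a description. Without AG_CPI 1, 0 genes passed (0 of the type I list), and without AG_CPI 2, 14 passed (2 of the type I list). Without NO_AG 1 or NO_AG 2 the totals were 26 and 13 (3 of the type I list each), and without AG 1 or AG 2 they were 206 and 229. Between AG_CPI and AG, 4 genes passed (0.0487%), all lower and none on a list. Without AG_CPI 1 or AG_CPI 2 none passed, and without AG 1, AG 2 or NO_AG 2 the counts were 10, 9 and 7. The type I list had a median of -0.96 there and the stress list one of 0.94. Of these lists, 7 of 10 and 2 of 7 genes met the filter only with the help of antigen mice. These medians, and that of 1.60 above, are therefore a description and lend no support. Igfl3 thus stood at 1.14 and 1.33 per 10000 in AG and AG_CPI, beside mean Isg15 levels of 5.49 ± 1.52 and 1.85 ± 0.410 (SD, n = 2), with no overlap between the groups for Isg15.

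Within cluster 6 alone, 21 of 7130 genes passed between AG and NO_AG (0.295%), 20 of them higher (0.281%). Of the type I list 7 of 11 rose, of which 2 met the filter in both NO_AG mice, and of the interferon-gamma list 3 of 19, of which 2 met the filter in both NO_AG mice, among them the GTPase Igtp (1.74). Gbp2 (2.75) met it in 1 NO_AG mouse only, so its value is a description. Here the summed T cell markers were 0.188 and 0.361 per 10000 without antigen against 0.729 and 0.977 with it in the AG mice, and the myeloid markers 0.119 and 0.0693 against 0.0787 and 0.692; their part was not tested.

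Igflr1, the receptor gene, was found mostly in T-like cells. It lies on the same chromosome, at chr7:30565427-30567962. It was sparse, with 197 UMIs in all cells kept, of which 162 (82.2%) came from T-like cells, a class that makes up 34.3% of cells. In CD8 T-like cells, 1 of 113 and 6 of 365 cells were positive without antigen, 11 of 747 and 7 of 526 in the AG mice, and 27 of 722 (3.74%) and 42 of 807 (5.20%) in the AG_CPI mice. Mean levels per 10000 were 0.0379 and 0.0467, 0.0446 and 0.0325, and 0.146 and 0.175. Both AG_CPI mice lay above the other 4, which overlapped. Different clusters held the alpha-beta T-like cells of the groups, counted here over mice with at least 10 cells in a cluster. Cluster 0, led by Ccl1, Gzma and Gzmf, had 18 cells in NO_AG (1 mouse), 399 in AG and 1470 in AG_CPI. Igflr1 in it was 0 per 10000 in that NO_AG mouse, whose 0 of 18 cells leaves room for up to 16.7%, 0.0588 and 0.0742 in the AG mice, and 0.187 and 0.191 in the AG_CPI mice. Cluster 1, led by Cd40lg and Cxcr3, had 525, 741 and 120 cells. There the AG_CPI mice were the lowest: Igflr1 was 0.0952 and 0.0259 without antigen, 0.0511 and 0.00800 in the AG mice, and 0 among 48 and 72 AG_CPI cells, which allows up to 6.25% and 4.17% of cells. These are 5, 8 and 0 UMIs in all, so no difference in cluster 1 was detectable at this depth. In the other alpha-beta T-like clusters, 7, 10 and 12, the AG means were 0.0218, 0.0254 and 0.0380. The AG_CPI means there were higher, at 0.0853 ± 0.0181, 0.121 ± 0.107 and 0.362 ± 0.200 (SD), from 11, 15 and 15 UMIs. NO_AG stood at 0.0625 in cluster 10 and 0 in cluster 12. The part of the shift between clusters in the class values was not tested.

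Igflr1 was testable only through the group where it is high. A gene was tested where at least 2 mice had 10 UMIs and a level of 0.1, which both AG_CPI mice reached and no NO_AG or AG mouse did, in CD8 and in other alpha-beta T-like cells alike. The differences below are therefore a description, and their p-values lend no support. Between AG_CPI and NO_AG it was 0.92 on the log2 scale (SE 0.245, limma adjusted p = 0.0615), where 250 of 7226 genes (3.46%) passed. Between AG_CPI and AG it was also 0.92 (SE 0.245, limma adjusted p = 0.331), where 7 genes (0.0969%) passed. Between AG and NO_AG it was 0.00 (SE 0.245, limma adjusted p = 1.00), and 97 genes (1.34%) passed there. The log2 scale uses a pseudocount of 0.1, which is above the level in NO_AG and AG, so these differences understate the ratios. The alpha-beta T-like cells called neither CD8 nor CD4 also had both AG_CPI mice highest, at 0.0763 and 0, 0.0302 and 0.0317, and 0.146 and 0.155. Their difference between AG_CPI and NO_AG was 0.98 (SE 0.321, limma adjusted p = 0.138; 3.33% of genes passed).

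**Figure D5:**
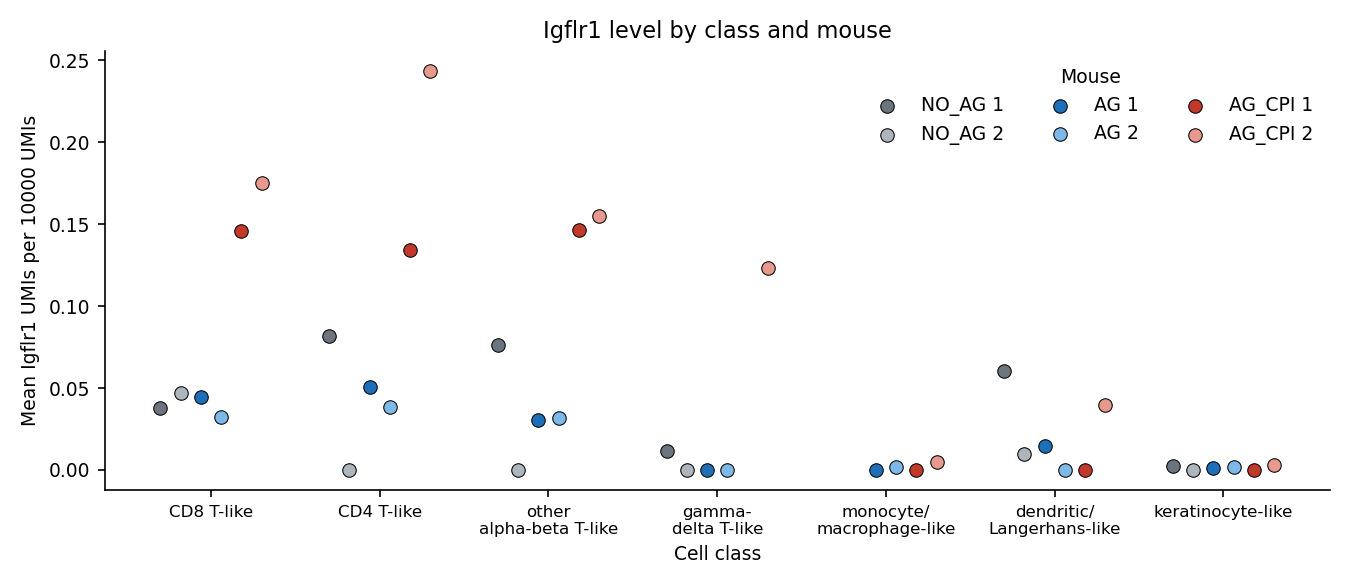
Mean Igflr1 UMIs per 10000 UMIs by cell class, 1 point per mouse with at least 10 cells in the class. In CD8 T-like cells the AG_CPI mice lie at 0.146 and 0.175 and the other 4 mice between 0.0325 and 0.0467, and keratinocyte-like cells lie near 0.

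Of the 5 annotated genes on each side of Igfl3, the deposited tables give values for 3, and none of these was higher in all antigen mice than in both NO_AG mice. Mill1, a relative of class I molecules and the second gene after Igfl3, was at 0.419 and 0.323 per 10000 in keratinocyte-like cells without antigen, at 0.400 and 0.450 in the AG mice and at 0.360 and 0.321 in the AG_CPI mice, with the groups overlapping. Ceacam12, the nearest gene before Igfl3, did not exceed 0.00391 in any mouse, and Psg18 did not exceed 0.0141.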

How the data were processed

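Per the labels' protocols, single cells of skin were sequenced with a 5′ droplet kit from 10x Genomics; the submitters' processing notes name Cell Ranger 3.1 and mm10. Each deposited value is a log10: a gene's UMIs were scaled to 10000 UMIs per cell, and 1 was added before taking the log. No header states this: it was read from the values, 100% of which return whole UMIs under log10. Igfl3 levels are means of the inverted values.

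Cells with under 200 genes or over 20% mitochondrial UMIs were left out. Of 21178 cells, 51 failed and 663 were removed as doublets (Scrublet in scanpy 1.11.5, 1.38% to 3.97% per library). Clusters (2000 variable genes without Igfl3, 30 components, 15 neighbours, Leiden resolution 1) were named from marker lists, hence "-like", and cells of alpha-beta T-like clusters were split by UMIs of Cd8a, Cd8b1, Cd4 and Trdc.

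Tests used limma 3.58.1 in R 4.3.3 on log2 of the mean level per mouse plus a pseudocount of 0.1, scaled by trimmed means. Genes needed at least 10 UMIs and a level of 0.1 in at least 2 profiles, p-values were adjusted by Benjamini-Hochberg over all genes tested, and the threshold was 0.05. Positive and negative cells were compared with the mouse as a block, negatives weighted to the positives' mix of clusters and of UMI bins (0.5 on the log2 scale). On simulated data the group test recovered 74.5% of 200 changed genes of 7811 (AG against NO_AG, 3 wrong calls) and the positive-negative test 67% of 200 of 7488 (none wrong). Replicate numbers were not shown to pair the mice: deviations of same-numbered mice correlated at 0.161, 0.0479 and 0.0418.

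The members, gene lists, markers and alternatives were chosen with earlier results of these data known. Named genes are Igfl3, Igflr1, called genes of the positive-negative test that moved alike in every mouse, the 10 most alike genes, called members of the lists, and neighbouring genes. As no gene was called with clusters matched, the first rule was applied to the fit matched on UMIs alone. In that fit, the direction in single mice was not checked. Intervals (95%, Wilson) and limits for a count of 0 (3 counts) cover counting error only. The alternatives tried were other pseudocounts, filters, scaling, doublets, cell classes, matching, limma-voom, a block and leaving out each mouse. Some genes that the rule names are not reported here.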

Additional observations from a re-analysis of the deposited data

Results flagged for a closer look

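In AG_CPI 1, 33 of 186 keratinocyte-like cells (17.7%) held a UMI of the Y-linked gene Ddx3y, and no keratinocyte-like cell of either NO_AG mouse did. Xist, which is made by cells with an inactive X chromosome, was found in 1.61% of the keratinocyte-like cells of AG_CPI 1 and in 65.4% to 88.5% of those of the other 5 mice. In CD8 T-like cells of AG_CPI 1, Xist was found in 53.7% and Ddx3y in 2.49%. The Igfl3 level of keratinocyte-like cells was 1.04 per 10000 in this mouse and 1.63 in AG_CPI 2, and the part of sex in that difference was not tested.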

How the results depend on the processing

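The Igfl3 level of NO_AG stayed below those of AG and AG_CPI under each alternative, while AG_CPI, above AG otherwise, lay below it without AG_CPI 2 (1.04). Some differences near 0 changed sign. Igflr1 between AG and NO_AG in CD8 T-like cells, at 0.00 on the log2 scale, was -0.00388 with a pseudocount of 0.01, -0.0394 without scaling, -0.0788 in limma-voom, -0.0158 at Leiden resolution 0.5, and -0.0650 to 0.0654 without 1 mouse; in other alpha-beta T-like cells it was -0.00689 with a pseudocount of 0.5, -0.0196 without scaling and -0.372 to 0.394 without 1 mouse. In positive against negative cells, Klk7 was -0.0361 with clusters and depth matched, but 1.27 with depth alone matched, 1.07 with no matching, 0.169 in AG_CPI mice alone, 0.0311 in cluster 6 alone, 0.0165 without scaling, 0.0361 with doublets kept, 0.00878 with at least 2 UMIs and -0.204 to 0.0449 without 1 mouse. Sprr1a, at -0.0188, was 1.05 with depth alone matched, 0.912 with no matching, 0.0781 with clusters alone matched, 0.0484 in AG mice alone, 0.121 in cluster 6 alone, 0.0345 without scaling, 0.137 in limma-voom, 0.0874 with at least 2 UMIs and -0.156 to 0.141 without 1 mouse. Krt17, at -0.129, was 0.853 with depth alone matched, 0.680 with no matching and 0.0644 in AG_CPI mice alone, and Krt15 ran from -0.232 to 0.00776 without 1 mouse. The Igfl3 level of NO_AG and AG was 0.00242 and 1.20 per 10000 with a stricter cell filter, 0.00322 and 1.10 with the class set per cell by keratin UMIs, 0.00652 and 1.08 with equal weights for the 5 clusters found in all mice, 0.00327 and 1.10 with sebocyte-like clusters included, and for AG 1.20 without cluster 4. Single mice ranged from 0.00356 to 0.00366 in NO_AG, 1.12 to 1.16 in AG and 1.04 to 1.63 in AG_CPI. The share in AG_CPI was 13.4% with the stricter filter, 14.6% with the keratin gate, 14.2% with sebocyte-like clusters and 12.8% without cluster 4; that in NO_AG was 0.227% with equal weights. Thinned to 1500 UMIs, the share was 0.0494% in NO_AG and 7.45% in AG_CPI, and with at least 2 UMIs it was 0.0199%, 6.98% and 6.83% in NO_AG, AG and AG_CPI. Single mice ranged from 0.101% to 0.159%, 9.16% to 18.4% and 10.8% to 11.3%.

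Of positive against negative cells, 1 gene passed with a pseudocount of 0.5, 1 without scaling and 1 in limma-voom, 89 with no matching on clusters, 79 with no matching at all, 72 in AG mice alone and 24 in AG_CPI mice alone (1 residual degree of freedom each), 3 in cluster 6 alone, and 0 to 3 without 1 mouse; with no replicate block 0 passed. The cluster 6, cluster 4 and sebocyte alternatives were chosen after seeing the data. Igflr1, which entered the test only through AG_CPI mice, is given as a description: between AG_CPI and NO_AG in CD8 T-like cells it was 0.30 with a pseudocount of 0.5 (limma adjusted p = 0.0381) and 0.87 to 0.94 without 1 mouse; in other alpha-beta T-like cells it was 0.59 to 1.35 without 1 mouse and 1.42 at Leiden resolution 0.5 (limma adjusted p = 0.00366). Its adjusted p over the alternatives ran from 0.0381 to 0.207 in CD8 T-like cells and from 0.00366 to 0.304 in the others.

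Genes passing between AG and NO_AG numbered 3 with no filter on low values, 148 in limma-voom, 73 with the replicate block and 11 to 117 without 1 mouse. Between AG_CPI and AG they were 0 with a pseudocount of 0.5, with no filter, in limma-voom, at Leiden resolution 0.5 and without cluster 4, 9 with the replicate block, and 0 to 10 without 1 mouse. Between AG_CPI and NO_AG they were 53 with a pseudocount of 0.5, 0 with no filter, 5 in limma-voom, 172 with the replicate block and 0 to 229 without 1 mouse. Leaving out a mouse lowered some of these counts and raised others, and the cause of the changes was not tested. A mouse left out leaves a group of 1, assumed to vary like the others. Of 390 values of single genes between groups, 274 kept their side of the threshold and 116 lost it.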
